A study of Mus musculus with 6 samples.

Results

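The DnaJ genes, also called J-domain or HSP40 genes, encode the cochaperones that bring substrates to HSP70 chaperones. Members were taken as every row of the deposited gene tables whose symbol begins with Dnaja, Dnajb or Dnajc followed by a number, which gave 45 of 46072 genes: 4 of class A, 13 of class B and 28 of class C. The measured values played no part in this rule. It leaves out J-domain proteins under other names, such as Sec63, Gak and Hscb, which are counted below among the partner genes, and the pseudogenes Dnaja1-ps and Dnajc19-ps.

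The study profiled 4-cell mouse embryos by Smart-Seq2, a full-length cDNA method for very small samples that keeps no strand, with 3 control libraries and 3 libraries from embryos injected as zygotes with an siRNA against Son. Son encodes a large protein of nuclear speckles that takes part in splicing, and the study asked about its role in early development. The labels do not give the mouse strain, the number of embryos in a library, what the controls were injected with, or the siRNA sequence. Nor do they say whether libraries of 1 group had separate origins, and p-values therefore cover only the spread between these libraries, which may be partly technical.

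A J domain is a short helical fold with a His-Pro-Asp motif in the loop between its central helices. The motif is needed to stimulate ATP hydrolysis by HSP70, which then closes on the substrate, and nucleotide exchange factors later release it. Class A proteins carry a glycine-rich region and a zinc-binding region beside the J domain, class B proteins the glycine-rich region without the zinc-binding region, and class C proteins only the J domain, placed anywhere in the chain. The early mouse embryo begins with RNA loaded into the oocyte and replaces it with its own transcripts, and heat-shock family genes are among those known to be transcribed at the start of that change.

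The His-Pro-Asp codons were read from the principal coding sequence of each member in GENCODE vM21, on the GRCm38 build. Of the 45 members, 44 held exactly 1 in-frame run of these 3 codons, against 1164 of 21597 protein-coding genes (5.39%) with at least 1, and Dnajb13 held none. The windows below, of 39 coding bases each, are shown because they carry the motif that defines the family in the genes that the results turn on. Capitals mark the 9 bases of the His-Pro-Asp codons.

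Dnaja1 (chr4:40723797-40723835, plus strand): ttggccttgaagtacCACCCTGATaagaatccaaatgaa

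Dnajb6 (chr5:29750948-29750986, plus strand): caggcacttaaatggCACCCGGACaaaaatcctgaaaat

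Dnajb9 (chr12:44208121-44208159, minus strand): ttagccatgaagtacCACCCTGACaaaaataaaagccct

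Dnajc5 (chr2:181547344-181547382, plus strand): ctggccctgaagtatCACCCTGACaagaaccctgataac

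Dnajc17 (chr2:119186356-119186394, minus strand): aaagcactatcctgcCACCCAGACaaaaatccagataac

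Dnajc22 (chr15:99104373-99104411, plus strand): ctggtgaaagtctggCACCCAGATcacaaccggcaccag

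Dnajc7 (minus strand of chromosome 11, joined across an intron): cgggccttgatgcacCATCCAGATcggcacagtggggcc

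The motif was written in 13 different versions of its 9 bases. The histidine codon was CAC in 26 members and CAT in 18, and the aspartate codon was GAC in 30 and GAT in 14. A lysine codon, AAA or AAG, came next in 34 members, as in Dnaja1, Dnajb6, Dnajb9, Dnajc5 and Dnajc17 above and not in Dnajc7 or Dnajc22. The first codon of the motif stood at codon 30 to 60 in 23 members, the N-terminal placement of Dnaja1 (codon 34) and Dnajb9 (codon 54). It stood beyond codon 60 in 21 members, as at codon 409 of Dnajc7, and the extremes over the family were codons 31 and 1332.

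Totals were 104634855 to 118865650 units of estimated count per library. Genes above 0 numbered 19552, 20411 and 19102 in the controls and 21101, 21337 and 20996 in the siRNA libraries, without overlap. The part of this difference in the DnaJ results was not tested. Son itself was at 249, 322 and 332 CPM (a count scaled to the size of its library) in the controls and at 41.03, 28.0 and 25.1 CPM after siRNA, with no overlap, which left 10.4% of its mean control level (edgeR log2 fold change -3.26, SE 0.272, adjusted p = 0.00991). Leaving out siRNA library 1, 2 or 3 took that adjusted p to 0.0648, 0.0709 and 0.136. The CPM here and below carry edgeR's TMM scaling, and every fold change is siRNA against control. All 10 early embryo markers had a mean over the 6 libraries above 1 CPM, although Pou5f1 was at 0.900 and 0.755 CPM in siRNA libraries 1 and 3. Pou5f1 was lower after siRNA without overlap, at 28.4% of its control mean (edgeR adjusted p = 0.177, DESeq2 adjusted p = 0.0311). Gdf9, Zp3 and Zscan4d were higher without overlap, at 230%, 158% and 156% of their control means, and neither edgeR nor DESeq2 called them. The rest of this list overlapped between groups. The part of these markers in the DnaJ results was not tested. Among the markers of other cells that such a sample could hold, 4 of 10 for cumulus cells (Foxl2, Fshr, Inha and Inhba), 4 of 8 for sperm and 4 of 8 for blood were at 0 in every library. The summed cumulus list ran from 6.53 to 17.9 CPM in controls and from 19.8 to 27.7 CPM after siRNA, the sperm list from 0.194 to 1.14 and from 0.151 to 0.905 CPM, and the blood list from 6.50 to 13.8 and from 10.1 to 11.5 CPM. The summed cumulus list was higher in every siRNA library, and nearly all of it was Amhr2, at 11.9, 17.1 and 6.53 CPM in controls and 19.7, 24.1 and 27.6 CPM after siRNA. The other cumulus markers were at most 0.379 CPM in any library. Of these, Cyp19a1, Has2 and Tnfaip6 had lower means after siRNA. Ptx3 and Amh, at 0 in every control, had higher ones (0.0621 and 0.0193 CPM). The part of the list in the results below was not tested. In whole embryos, fewer cells and less RNA per cell cannot be told apart.

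A few genes made up most of the summed DnaJ level in these embryos. Of the 45 members, 11 averaged 100 CPM or more and 20 averaged under 10 CPM. Compared per kilobase of exon, over all 6 libraries, Dnajb9 stood first at 509 CPM per kilobase, followed by Dnajb6 at 243 and Dnaja1 at 231. The length counted every annotated exon of a gene, and was 2.549 kilobases for Dnajb9, 6.062 for Dnajb6 and 8.629 for Dnaja1. In plain CPM the order of their means was reversed. Control means were 1559 CPM for Dnajb9, 1732 for Dnajb6 and 2314 for Dnaja1, and siRNA means were 1036, 1212 and 1671 CPM. These 3 genes held 62.9% of the family's summed CPM per kilobase, with a range of 57.7% to 68.0% over libraries. Dnajc21 (98.1), Dnajc8 (85.7), Dnaja2 (56.5), Dnajc2 (50.4) and Dnajc15 (48.3) came next in CPM per kilobase, and the 8 together held 84.9%. Of the 43 pairs of neighbours in this order, 40 overlapped between libraries, so most ranks are not separated. The pairs that did not overlap were Dnajb9 above Dnajb6, Dnaja1 above Dnajc21, and Dnajc8 above Dnaja2. Dnajb8 was at 0 in every library and was not tested. With it, 7 members averaged under 1 CPM.

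No DnaJ gene passed the test for a change after Son siRNA. With edgeR's quasi-likelihood test and an adjusted p under 0.05 over all genes, 0 of 44 tested members were called, beside 0.989% of 17788 tested genes (0.899% lower and 0.0899% higher). Without any 1 of the siRNA libraries, edgeR called 0 of all genes and 0 members. At an unadjusted p under 0.05, 5 members were lower and 6 higher, 11 in all, beside 14.7% of all tested genes (8.86% lower and 5.88% higher). DESeq2 called 1 member lower, Dnajc7, and 1 higher, Dnajc5, beside 8.99% of the 13605 genes to which it gave an adjusted p (6.25% lower and 2.74% higher). The 2 groups did not overlap in 15 members, 6 lower and 9 higher, beside 23.7% of all tested genes (11.6% lower and 12.1% higher). The tested members' fold changes were below 0 for 18 and above 0 for 26, beside 48.7% below 0 over all tested genes. The median log2 fold change was 0.08 over members and 0.02 over all tested genes. An exact permutation test of 3 libraries against 3 cannot give a two-sided p below 0.10.

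**Figure D1:**
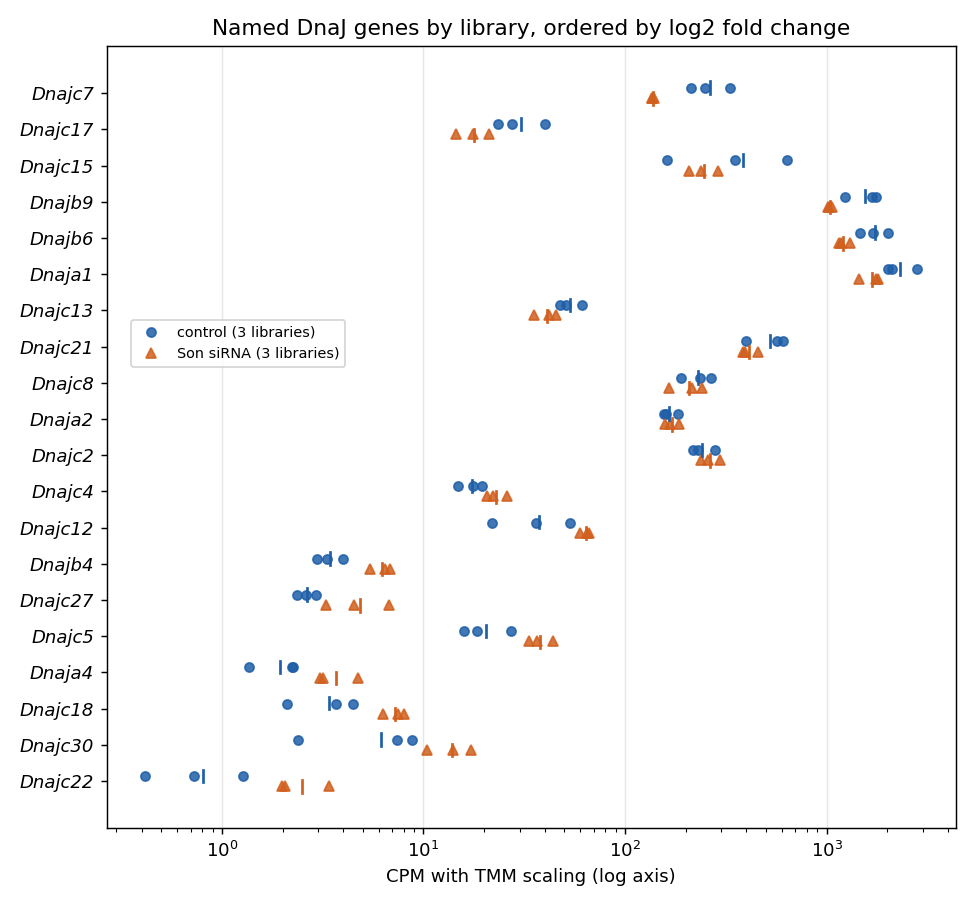
CPM (TMM scaling, log axis) of the 20 DnaJ genes with an unadjusted p under 0.05, groups without overlap or a place among the 8 highest per kilobase, 1 point per library, with circles for the 3 controls and triangles for the 3 siRNA libraries and a bar at each group's mean. For Dnajc7 the siRNA libraries sit at 136 to 139 CPM, all below the lowest control at 213 CPM.

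Dnajc7 had the smallest p of the family. It encodes a class C protein with tetratricopeptide repeats that binds both HSP70 and HSP90, and the gene lies at chr11:100582818-100620168 on GRCm38. Its controls were at 333, 213 and 250.2 CPM and its siRNA libraries at 136, 139 and 137 CPM. The siRNA libraries lay close together, below every control. The siRNA mean was 51.7% of the control mean (137 ± 1.97 against 265 ± 61.4 CPM, SD, n = 3 each), which edgeR put at a log2 fold change of -0.95 (SE 0.223, adjusted p = 0.0901). DESeq2 gave an adjusted p of 0.00568, limma-voom, fitted with group-wise variances, gave 0.0473, and edgeR without control 2, the lowest control, gave 0.0464 with a log2 fold change of -1.08. With each library left out in turn, edgeR's adjusted p ran from 0.0464 to 0.406 and the log2 fold change from -1.08 to -0.75. The DESeq2 call was lost without siRNA library 1 and without siRNA library 3. Of its exonic bases, 9.07% also lie in Cnp or Nkiras2, so that reads from these genes cannot be told apart there.

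Dnajc12, the other member outside the groups below, encodes a cochaperone of the aromatic amino acid hydroxylases. Its controls were at 36.4, 22.0 and 53.4 CPM and its siRNA libraries at 64.8, 59.6 and 66.6 CPM. Every siRNA library was above every control, by a log2 fold change of 0.77 (SE 0.326, adjusted p = 0.315; 0.51 without control 2).

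The cytosolic cochaperones of classes A and B hand substrates to Hspa8 and its heat-inducible relatives. Of the 12 members grouped here, which include Dnajb13 although it lacks the His-Pro-Asp codons, 11 were tested. Among those tested, 3 were below 0 and 8 above, with a median log2 fold change of 0.23. Dnaja1 and Dnajb6, the highest of the group per kilobase, lay below 0. Dnaja1, a class A cochaperone of Hspa8, was at 2806, 2021 and 2115 CPM in controls and at 1455, 1765 and 1795 CPM after siRNA. All 3 siRNA libraries were below all 3 controls (log2 fold change -0.47, SE 0.203, adjusted p = 0.329; -0.31 without control 1). Of its 100-base stretches 16.6% occur elsewhere in the annotated transcripts and 10.8% of its exonic bases overlap other genes, so its level is uncertain.

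Dnajb6, a class B protein known for holding back aggregation of polyglutamine proteins, was at 2028, 1466 and 1702 CPM in controls and at 1180, 1306 and 1150 CPM after siRNA. Its groups did not overlap either (log2 fold change -0.52, SE 0.193, adjusted p = 0.256), and 17.1% of its 100-base stretches occur in other genes. Dnaja2, a close relative of Dnaja1, showed no such gap: controls were at 155, 182 and 160.3 CPM and siRNA libraries at 167, 186 and 158 CPM. The 2 groups lay within the same range, with a log2 fold change of 0.04 (SE 0.195, adjusted p = 0.961), whose sign turned when control 1 (-0.01) or siRNA library 2 (-0.04) was left out.

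Dnajb4, a cytosolic class B member of low level, was at 3.32, 4.00 and 2.97 CPM in controls and at 6.47, 5.43 and 6.83 CPM after siRNA, without overlap (log2 fold change 0.86, SE 0.354, adjusted p = 0.302). Dnaja4, a heat-inducible class A member, had controls of 1.36 to 2.25 CPM and siRNA libraries of 3.07 to 4.75 CPM (log2 fold change 0.91, adjusted p = 0.384). Since 44.1% of the exonic bases of Dnaja4 also lie in Wdr61, its reads may belong in part to that gene. Dnajb1, the classical heat-inducible HSP40, was at 22.3 to 57.2 CPM in controls and 34.5 to 47.1 CPM after siRNA, and these ranges overlapped. The remaining tested members of this group were rare: Dnajb2 reached at most 3.57 CPM in any library, Dnajb3 1.87, Dnajb7 1.13, Dnajb5 0.625 and Dnajb13 0.611. Their groups overlapped, and their log2 fold changes ran from -1.69 to 1.43 with SE of 0.57 or more, so that no direction is readable at these levels.

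**Figure D2:**
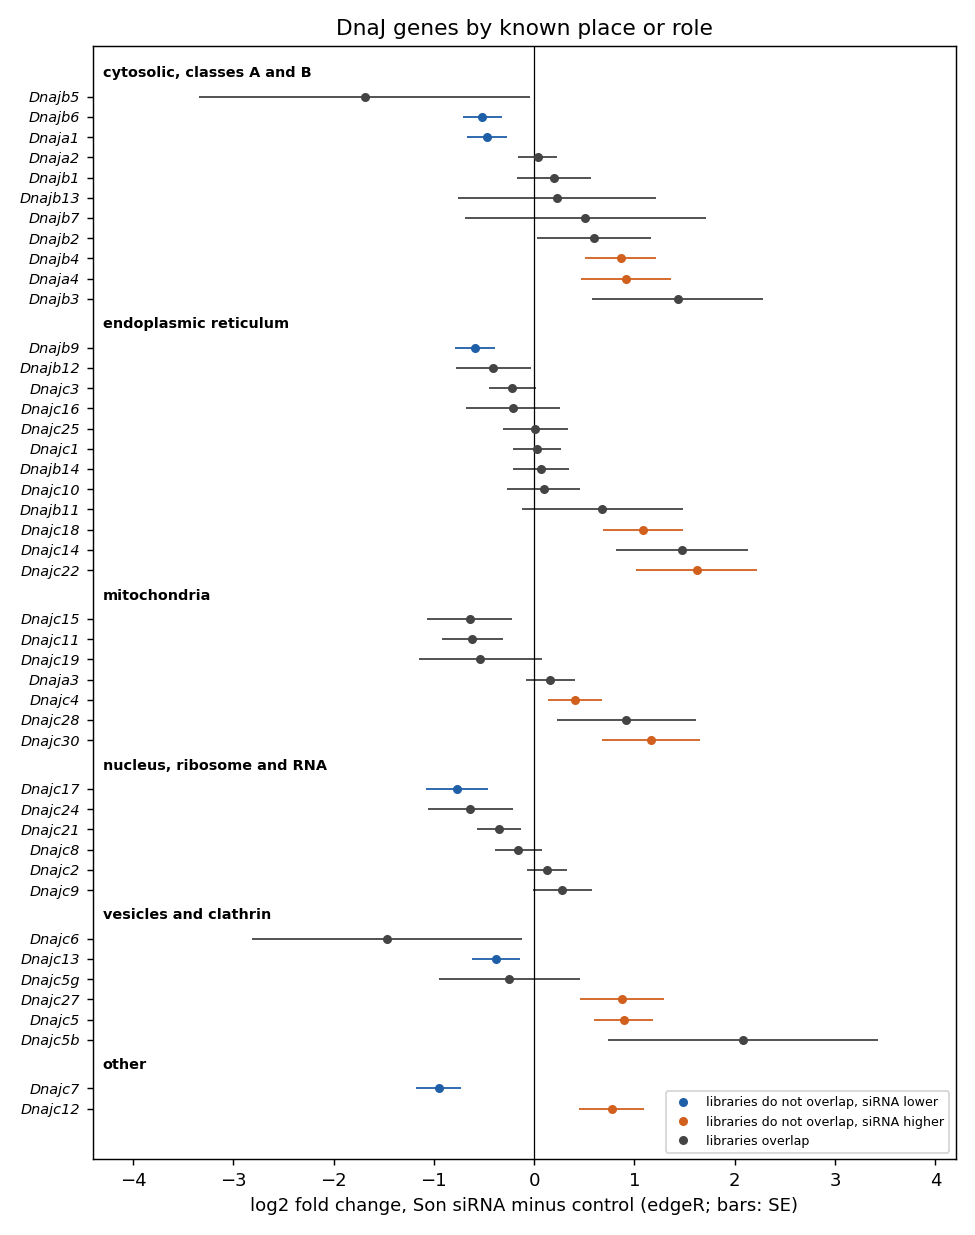
Log2 fold change, siRNA minus control, of the 44 tested DnaJ genes grouped by the place where the protein works; points are edgeR estimates, bars 1 SE, blue and orange mark genes whose groups do not overlap (siRNA lower and higher) and grey those that do. The nuclear and ribosomal group has the lowest median (-0.25), and no point has an adjusted p under 0.05. The groups also differ in the level of their genes.

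In the endoplasmic reticulum, several J-domain proteins serve Hspa5 (BiP) in folding, translocation and the removal of misfolded proteins. The group here is by place and also holds members that do not serve BiP, such as Dnajb12. All 12 members were tested; 4 were below 0 and 8 above, with a median of 0.05. Dnajb9, also called ERdj4, which recruits BiP to the stress sensor IRE1, was at 1238, 1761 and 1678 CPM in controls and at 1067, 1018 and 1024 CPM after siRNA. The siRNA libraries were close together and below every control, at 66.5% of the control mean (log2 fold change -0.59, SE 0.198, adjusted p = 0.206).

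Dnajc18, a membrane protein of the reticulum, was at 2.10, 3.69 and 4.45 CPM in controls and at 6.32, 7.44 and 8.01 CPM after siRNA. Dnajc22, a multi-pass membrane protein counted here with the reticulum, was at 0.416, 0.731 and 1.28 CPM in controls and at 1.998, 3.39 and 2.06 CPM after siRNA. Both were higher in all 3 siRNA libraries, by log2 fold changes of 1.09 (SE 0.397, adjusted p = 0.246) and 1.62 (SE 0.604, adjusted p = 0.254). Dnajc3, an inhibitor of the kinase PERK and relatives, was at 147 to 233 CPM in controls and 139 to 169.9 CPM after siRNA, and Dnajb14 at 80.2 to 161 and 112 to 125 CPM; both overlapped. Dnajc1, Dnajc10 and Dnajc25 also overlapped, with group means within 10% of each other. Dnajb12, a membrane-anchored cochaperone of Hspa8, was at 5.33 to 11.96 CPM in controls and 6.41 to 6.83 CPM after siRNA, and Dnajc16 was at 1.97 to 2.26 and 1.35 to 2.19 CPM.

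The mitochondrial members include parts of the import motor and the cochaperones of Hspa9. Of 7, 3 were below 0 and 4 above, with a median of 0.16. Dnajc15, an inner membrane protein related to the import motor subunit Dnajc19, was at 636, 162 and 353 CPM in controls and at 208, 289.7 and 239 CPM after siRNA. The controls covered the whole siRNA range (log2 fold change -0.64, SE 0.42, adjusted p = 0.539); the estimate was -0.07 without control 1 and -1.01 without control 2.

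Dnajc30, a single-exon gene whose protein acts at the respiratory chain, was at 7.41, 8.74 and 2.38 CPM in controls and at 10.4, 17.1 and 14.05 CPM after siRNA. Its groups did not overlap (log2 fold change 1.16, SE 0.486, adjusted p = 0.312), but 26.2% of its exonic bases lie in Bud23. Dnajc4 was at 14.8 to 19.6 CPM in controls and 20.6 to 26.1 CPM after siRNA, also without overlap (log2 fold change 0.40, adjusted p = 0.55). Dnaja3, the class A member of mitochondria, had means of 25.6 and 28.6 CPM in control and siRNA libraries. Dnajc11, a protein of the cristae-organizing complex, was at 15.9 to 27.6 CPM in controls and 13.2 to 15.9 CPM after siRNA, and Dnajc19 was at 2.66 to 10.3 and 2.25 to 6.36 CPM; both overlapped.

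The members that work in the nucleus, on ribosomes or on RNA had the lowest median, -0.25, with 4 of 6 below 0. Dnajc2, Dnajc8 and Dnajc21 averaged 100 CPM or more, where the median over all tested genes was -0.24. The rest of the group averaged 10 to 100 CPM, where it was -0.03. The part of level in the group's median was not tested. Dnajc17, a class C protein with an RNA recognition motif that is tied to splicing, was at 40.2, 27.4 and 23.4 CPM in controls and at 14.5, 21.2 and 17.5 CPM after siRNA. Its siRNA libraries were all below its controls (log2 fold change -0.77, SE 0.309, adjusted p = 0.288).

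Dnajc8, which is found with spliceosomal proteins, was at 234, 268 and 189 CPM in controls and at 165, 241 and 215 CPM after siRNA. These overlapped (log2 fold change -0.16, SE 0.23, adjusted p = 0.832), and the sign turned, to 0.11, when libraries were scaled by their totals. Dnajc21, a factor of large ribosomal subunit maturation, was at 396 to 608 CPM in controls and 384 to 457 CPM after siRNA (log2 fold change -0.35, adjusted p = 0.527). Dnajc2, which sits on ribosomes near the exit of the nascent chain, was at 217 to 279 and 239 to 297 CPM (0.13, adjusted p = 0.846), and Dnajc9, a chaperone of histones, at 11.3 to 13.9 and 13.1 to 18.4 CPM. Dnajc24, which takes part in making diphthamide on elongation factor 2, was at 22.2 to 60.8 and 17.8 to 34.3 CPM, again with overlap.

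Members of vesicle traffic were 3 below and 3 above 0, with a median of 0.31. Dnajc5, the cysteine string protein that keeps vesicle fusion proteins folded, was at 15.9, 27.1 and 18.3 CPM in controls and at 43.7, 33.5 and 36.5 CPM after siRNA. Every siRNA library was above every control, at 186% of the control mean (log2 fold change 0.89, SE 0.294, edgeR adjusted p = 0.199, DESeq2 adjusted p = 0.0424). With 1 library left out, DESeq2 called Dnajc5 only without control 2. Dnajc13, an endosomal protein, was at 47.4 to 61.3 CPM in controls and 35.5 to 45.2 CPM after siRNA (-0.38, adjusted p = 0.523), and Dnajc27, which joins a J domain to a small GTPase, at 2.36 to 2.93 and 3.27 to 6.77 CPM (0.88, adjusted p = 0.377; 0.55 without siRNA library 2). Neither pair of groups overlapped. Dnajc6, the auxilin that uncoats clathrin vesicles, was at most 1.89 CPM, and the relatives of Dnajc5, Dnajc5b and Dnajc5g, were at 0 to 1.55 and 2.86 to 27.9 CPM over all libraries; the groups of each overlapped.

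Under TMM scaling, the sign of the difference went with the level of the gene, in the family as in all genes. Of the 11 members with a mean of 100 CPM or more, 8 were below 0, with a median log2 fold change of -0.35; over all genes of that level the median was -0.24 and 71.6% were below 0. The 14 members at 10 to 100 CPM had a median of 0.18, against -0.03 over all such genes, of which 52.4% were below 0. The 19 tested members under 10 CPM had a median of 0.60, against 0.15 over all such genes, of which 44.1% were below 0. These level ranges were chosen after the values were seen. Scaling by library totals raised the median over all genes, so the side of 0 can depend on the scaling. The medians by level were not computed under that scaling.

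**Figure D3:**
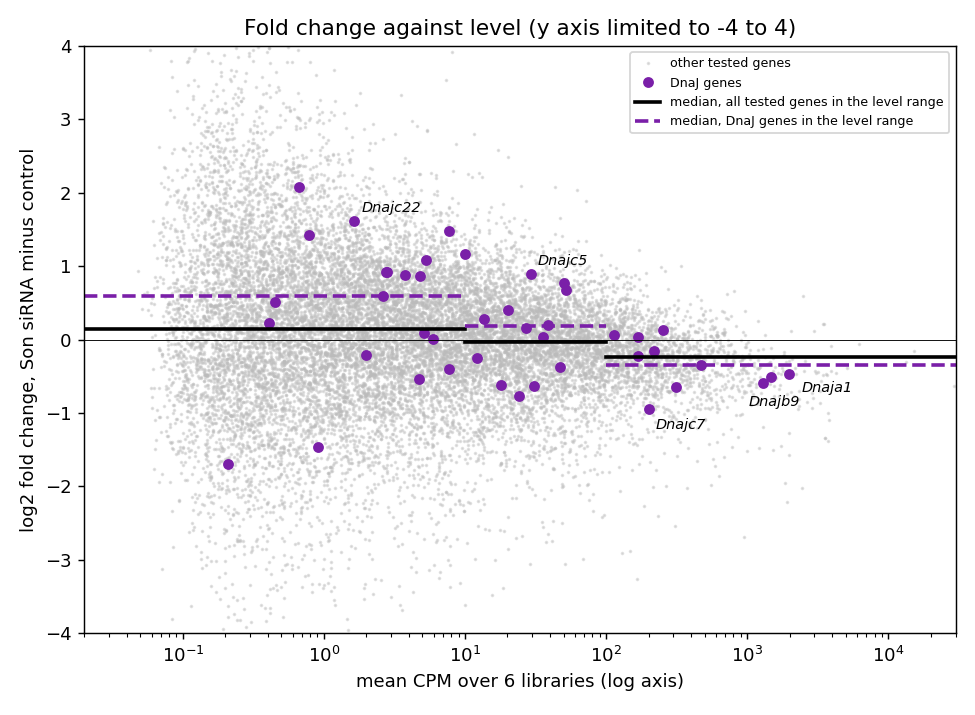
Log2 fold change, siRNA minus control, against mean CPM (log axis) for all tested genes in grey and the 44 tested DnaJ genes in purple, with the median of each in 3 level ranges as lines; genes beyond the vertical limits of -4 and 4 are not drawn. Under TMM scaling, both medians in the highest range lie below 0 (-0.35 for DnaJ genes and -0.24 for all genes), and in the lowest both lie above it.

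The summed DnaJ level was lower after siRNA under TMM scaling. It was 1837, 1716 and 1758 CPM per kilobase in controls and 1271, 1421 and 1319 after siRNA, without overlap (1770.3 ± 61.4 against 1337 ± 77.0, SD, n = 3 each). The siRNA mean was 75.5% of the control mean, and 73.1% to 77.4% when any 1 library was left out. Without Dnajb9, Dnajb6 and Dnaja1 the groups overlapped, at 549 to 692 and 489 to 602 CPM per kilobase (88.8%). Scaled by library totals, the whole family overlapped too, at 1424 to 1805 in controls and 1454 to 1520 after siRNA (92.5%). This scaling moved the all-gene median from 0.02 to 0.31 on the log2 scale. Under it Dnajc7 (-0.64), Dnajb9 (-0.31), Dnajb6 (-0.21) and Dnaja1 (-0.17) were also below 0. The TMM factors, which multiply the library sizes, were 0.858, 1.05 and 0.810 in controls and 1.16, 1.02 and 1.15 after siRNA. A library's TMM-scaled total over all tested genes falls as its factor rises, so that total too was lower on average after siRNA. The part of this in the DnaJ sum was not tested. The sum is a description and was given no test.

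**Figure D4:**
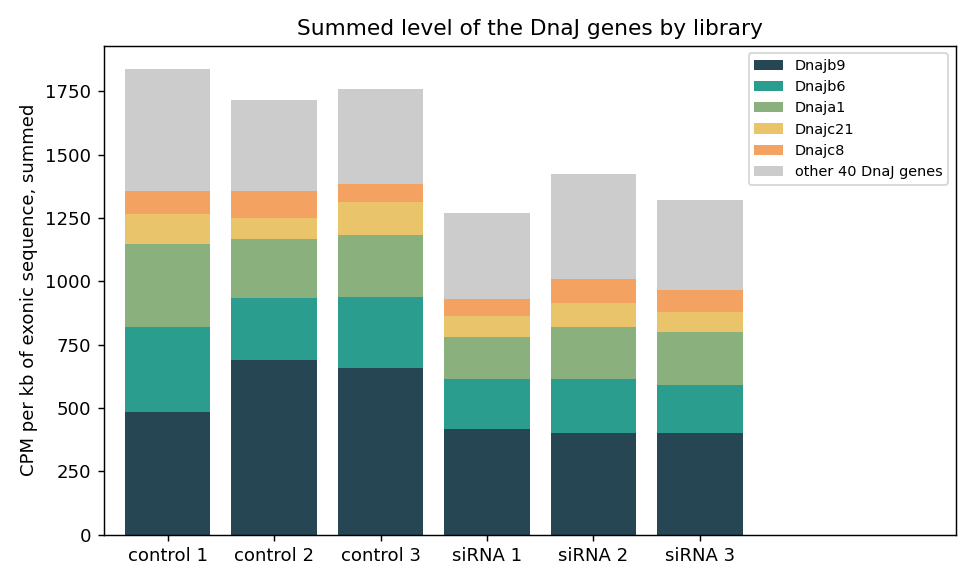
Summed level of the DnaJ genes in CPM per kilobase of exon for each of the 6 libraries, on an axis from 0 and with TMM scaling, with the 5 highest genes in colour and the other 40 in grey. The 3 siRNA bars (1271 to 1421) are all shorter than the 3 control bars (1716 to 1837). Scaled by library totals, the groups overlapped.

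Control libraries varied more than siRNA libraries in this family, as they did over all genes. The 25 members at 10 CPM or more had a median SD, on the log2 CPM scale, of 0.333 among controls and 0.159 among siRNA libraries, and 21 of them varied more among controls. Over all 6079 genes of that level the medians were 0.424 and 0.216, with 80.3% larger in controls.

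The partners of the family were taken from a list of 42 other genes of the HSP70 and HSP90 machinery, 41 of them tested. Their median log2 fold change was 0.00, with 20 below and 21 above 0. Only 1 passed edgeR's test, Hspa8, the constitutive cytosolic HSP70 that most cytosolic DnaJ proteins serve. It was at 1125, 1110 and 1178 CPM in controls and at 374, 448 and 416 CPM after siRNA. Hspa8 fell by 1.46 on the log2 scale (SE 0.182, edgeR adjusted p = 0.0141), to 36.3% of the control mean. DESeq2 gave Hspa8 an adjusted p of 3.2e-09. Leaving out siRNA library 1, 2 or 3 took its edgeR adjusted p to 0.196, 0.0801 and 0.155, in fits where edgeR called no gene. Of its 100-base stretches, 28.5% occur in other annotated genes, pseudogenes among them.

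Stip1, which bridges HSP70 and HSP90, was at 528, 796 and 499.8 CPM in controls and at 342, 295 and 353 CPM after siRNA. It did not overlap and was called by DESeq2 (adjusted p = 0.0169) but not by edgeR (log2 fold change -0.88, SE 0.233, adjusted p = 0.118). Hsp90b1, the HSP90 of the endoplasmic reticulum, was on the higher side, at 59.6, 105 and 133 CPM in controls and 166, 159.5 and 163 CPM after siRNA (0.72, adjusted p = 0.297; 0.46 without control 1), and 15.7% of its exonic bases overlap other genes. Hsp90ab1 (-0.39, adjusted p = 0.371) and Hspa4l (0.79, adjusted p = 0.388) did not overlap between groups, and Stub1, the ubiquitin ligase of the machinery, did (-0.97, adjusted p = 0.343). The Stub1 estimate was -0.54 without control 2 and -1.32 without control 3, and 42.3% of its exonic bases lie in Jmjd8 or Mir3082. Over the list, 5 genes were lower and 4 higher without overlap, a share near the 23.7% of all tested genes (11.6% lower and 12.1% higher).

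**Figure D5:**
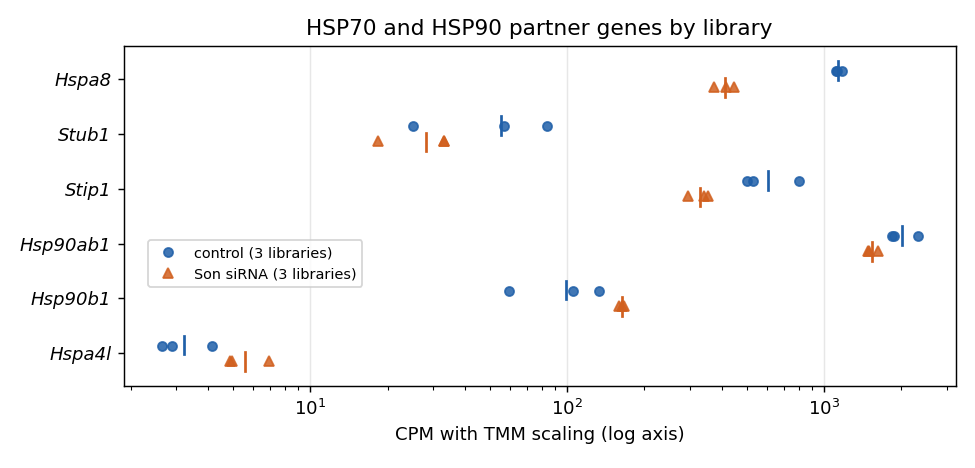
CPM (TMM scaling, log axis) of the 6 genes of the HSP70 and HSP90 machinery with the smallest unadjusted p, 1 point per library, with a bar at each group's mean. Hspa8 lies at 1110 to 1178 CPM in controls and 374 to 448 CPM after siRNA.

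Promoters were available from RefSeq (GRCm38.p6, 250 bases before to 50 after the start) for 37 of the 45 members, in 50 windows. On both strands, a heat shock element (GAA, any 2 bases, TTC, any 2 bases, GAA) was found in 198 of 32851 promoters (0.603%). Among members it was found only for Dnajb6, in both of its overlapping windows (chr5:29735648-29735947 and chr5:29735729-29736028, plus strand). The match is shown because Dnajb6 is among the 3 most abundant members.

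Dnajb6, match on chromosome 5: GAATCTTCCGGAA

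An endoplasmic reticulum stress element (CCAAT, any 9 bases, CCACG) was found in 39 promoters (0.119%), and among members only for Dnajc3 (chr14:118937682-118937981, plus strand). These matches describe the letters of the windows and are not evidence of binding.

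Dnajc3, match on chromosome 14: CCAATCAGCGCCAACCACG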

How the data were processed

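The authors deposited whole-number estimated counts per gene, not normalized, in 1 table per library. The aligner HISAT2 2.0.5, the assembler StringTie 1.3.3b and the GRCm38 build are named per the submitters' processing notes; the annotation release is not given in the sources used here. Of the values from 1 to 40, 26.4% to 32.4% per library were multiples of 4, so counts divided by 4 were an alternative.

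Counts were tested as deposited with edgeR 4.0.16 (R 4.3.3): filterByExpr, TMM, glmQLFit and glmQLFTest without a block, with Benjamini-Hochberg adjustment over 17788 genes and a threshold of 0.05. SE is the log2 fold change divided by the square root of F. Alternatives used DESeq2 1.42.0 and limma 3.58.1. On simulated data of 16730 genes, the test recovered 71 of 100 true 4-fold changes and 97 of 100 true 8-fold changes, and 11 of its 179 calls were unchanged genes. Changed genes were drawn only from those above a set mean level, so recovery was not measured for rarer genes. Each gene was given the same spread in both groups, although controls varied more in the data.

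Named with fold changes were members with an unadjusted p under 0.05 or non-overlapping groups, the 8 highest per kilobase, Son, and the 6 partner genes with the smallest p; Dnajb11, Dnajc14 and Dnajc28 were added after their values were seen. The members and lists were chosen with earlier results of these data known. Exon lengths, overlaps and shared 100-base stretches come from GENCODE vM21, matched by identifier for 45223 genes.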

Additional observations from a re-analysis of the deposited data

How the results depend on the processing

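Of 580 values over 20 alternatives for the 23 DnaJ genes and 6 partner genes named, Son not counted, 548 kept their direction and their side of the threshold, 4 lost a call (Hspa8), 23 gained one and 5 changed sign. Those 5 were Dnajc8 under total-count scaling (0.11) and Dnaja2 without control 1 (-0.0086 by edgeR, -0.027 by DESeq2) or without siRNA library 2 (-0.039 and -0.046). The cause of the sign changes was not tested. Members called were 1 lower and 1 higher by DESeq2, 1 lower by limma-voom, 0 to 1 lower with edgeR leaving out a library, and 0 to 3 lower and 0 to 3 higher with DESeq2 leaving out a library. That last alternative was chosen after seeing the data. The members' median log2 fold change was 0.39 under total-count scaling, where that of all genes was 0.31.

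Over all tested genes, the lower and higher calls of edgeR (160 and 16) became 35 and 7 under total-count scaling, 91 and 9 with no filter, and 245 and 43 with a filter of 50 units in 3 libraries. They were 850 and 373 by DESeq2, 279 and 51 with counts divided by 4, and 330 and 43 by limma-voom with group-wise variances. Leaving out a library gave 0 to 231 lower and 0 to 84 higher by edgeR. DESeq2 called 712 lower and 542 higher without control 1, 1293 and 1205 without control 2, 954 and 821 without control 3, 494 and 133 without siRNA library 1, 778 and 231 without siRNA library 2, and 491 and 97 without siRNA library 3. The log2 fold change of Son was -3.50 to -3.12 by edgeR when an siRNA library was left out, with adjusted p of 0.0648 to 0.136, so that its edgeR call was lost in each case and with the block below, and was kept under the other 16 alternatives.

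With the replicate number as a block, edgeR called 0 genes in either direction and 0 members; Son was at -3.29 (adjusted p = 0.0617) and Hspa8 had an adjusted p of 0.0861. Deviations of same-numbered libraries from their group means correlated at -0.27, -0.33 and 0.02 over 6079 genes, so these data give no sign that equal numbers pair the libraries; the labels do not say whether a number marks a shared litter or day. By the simulation, genes changed less than 4-fold were not covered, and most members differed by less.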

Other observations

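Further members were singled out after their values were seen. Dnajb11, a soluble BiP cochaperone also called ERdj3, was at 41.9, 76.0 and 2.96 CPM in controls and at 63.1, 64.2 and 66.5 CPM after siRNA. Control 3 was far below the other 5 libraries, and the log2 fold change of 0.68 was 0.13 without it and 1.53 without control 2. Dnajc14, an endoplasmic reticulum membrane protein, was at 5.81, 4.84 and 1.57 CPM in controls and at 3.29, 14.9 and 15.8 CPM after siRNA, so that siRNA library 1 lay within the controls. Of the exonic bases of Dnajc14, 19.9% lie in other genes.

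Dnajc28 lies on chromosome 16, 28479 bases from Son, the targeted gene. It was at 0.385, 3.27 and 2.05 CPM in controls and at 4.66, 2.67 and 3.44 CPM after siRNA (log2 fold change 0.92, edgeR adjusted p = 0.606), with overlapping groups. The estimate was 0.43 without control 1 and 1.56 without control 2, while Son fell by 3.26 on the log2 scale.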
